A study of Mus musculus with 39 samples.

Results

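The carboxylesterases described here are 10 genes, Ces1b, Ces1c, Ces1d, Ces1e, Ces1f, Ces1g, Ces2a, Ces2e, Ces3a and Ces3b, chosen by name and not by any measured value. Earlier results of these data were known when they were chosen. All 10 are among the 13230 genes listed in both tables, with 6 genes in the Ces1 subfamily, 2 in Ces2 and 2 in Ces3. Liver from wild type FVB female mice was homogenized with beads and without detergent, cleared of nuclei and sedimented through a 10 to 50% sucrose gradient, and RNA from the fractions was sequenced (ATLAS-Seq). There are 39 libraries, 17 from gradient 1 (fractions 4 to 19 and 21) and 22 from gradient 2 (fractions 3 to 24), and fraction numbers run from light to dense. The gradients are the biological replicates (n = 2, from different mice), and no treatment or mutant was compared.

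Carboxylesterases are serine hydrolases that cleave ester, amide and thioester bonds in drugs and lipids, and liver is one of their main sites. They are made on ribosomes of the endoplasmic reticulum (ER), enter its lumen through a signal peptide, and most are kept there by a short C-terminal retention signal that is read by receptors returning proteins from the Golgi. Ces1d, also called triacylglycerol hydrolase, takes part in the mobilization of stored triglyceride for lipoprotein assembly, Ces1g (also called Es-x) also acts on lipids in hepatocytes, and Ces1c is the carboxylesterase of mouse plasma.

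The last coding bases were compared because they encode the protein end that holds the retention signal in many ER proteins. Each line gives the last 27 bases of the coding sequence including the stop codon, 5′ to 3′, from GENCODE M21 transcripts on GRCm38 (reference strain C57BL/6J, not FVB), with the 12 coding bases before the stop codon in capitals.
Ces1b: cctactgagcacAGAGAACACAAAtga
Ces1c: cctactgaacacACAGAACACAAAtga
Ces1d: tcccacagggaaCATGTTGAGCTCtga
Ces1e: ctgccgacagaaCACACTGAGCTGtga
Ces1f: ccccagccatacCACAATGAGCTGtga
Ces1g: tcccatagggaaCATGTTGAACTGtga
Ces2a: tctcaggacaagCATGCAGAGCTGtag
Ces2e: tctcaggagaggCACAAAGAGTTGtag
Ces3a: agcaggaaagttCCAGAGGAGCTCtga
Ces3b: agcaggaaagttCCAGAGGAGCTCtga

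The last 6 coding bases were searched on the coding strand, where GAG and GAA encode glutamate and CTN leucine. GAGCTN closed 6 members (Ces1d, Ces1e, Ces1f, Ces2a, Ces3a and Ces3b) and 0.513% of the 21447 coding genes searched. Ces2e ended in GAGTTN, as did 0.242% of coding genes. Ces1g ended in GAACTN, as did 0.312%. The remaining form searched, GAATTN, closed 0 members and 0.173% of coding genes. In all, 8 of 10 members and 1.24% of coding genes had an ending of this kind. The share of all coding genes includes TTN endings that encode phenylalanine and not leucine. Ces1b and Ces1c ended in CACAAA, as did 0.042% of coding genes, and the forms above are not in this window of these 2 genes. Ces3a and Ces3b were identical over all 27 bases. RNA profiles do not show where the encoded proteins reside, so the name "ER lumen" could be set only beside these sequences.

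All members lie on mouse chromosome 8. The 6 Ces1 genes sit on the minus strand within 281 kb, from Ces1b at chr8:93056728-93080017 to Ces1g at chr8:93302369-93337308. The Ces2 and Ces3 members sit on the plus strand within 359.9 kb, from Ces2a at chr8:104734003-104741634 to Ces3b at chr8:105083753-105093929. A gap of 11397 kb separates the blocks.

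Because the members are paralogs, reads can fit more than 1 of them, and the pseudo-aligner then divides them by estimate. Of the 31-base stretches of each transcript, 42.6% in Ces3a and 36.1% in Ces3b also occurred in the other of that pair, whose coding sequences were 95.3% identical. In Ces2a, 37.4% occurred in another gene, most of them in Gm7208 (30.9%). These shares are of GENCODE M21 transcripts, while the authors used RefSeq transcripts, and whether Gm7208 was among those is not known here. The shares were 30.1% in Ces1c and 23.9% in Ces1b, 11.9% in Ces2e, and 5.54% to 8.66% in Ces1d, Ces1e, Ces1f and Ces1g. With 75-base stretches they dropped to 18.3% in Ces3a, 15.4% in Ces3b, 14.8% in Ces2a and 6.73% in Ces1c, and to 0% in Ces1d, Ces1f and Ces1g. The levels of Ces3a against Ces3b, of Ces2a and of Ces1b against Ces1c are therefore uncertain, by an amount that was not measured.

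Levels are given as TPM, the share of transcripts in a library after scaling for transcript length, which can be compared between genes. Every library was made from the same mass of RNA, so a low value does not give the amount of an RNA in that fraction. In whole tissue, fewer cells of a type and less RNA per cell cannot be told apart. Hepatocyte markers were measured for 7 of 7 genes, and their sum ran from 11021 to 52472 TPM. The sums for other cells were far lower, with 6 of 6 Kupffer cell markers at 30.2 to 99.0 TPM and 6 of 6 endothelial markers at 16.5 to 76.2 TPM. Stellate cell markers (5 of 6) summed to 8.16 to 78.6 TPM, cholangiocyte markers (3 of 4) to 2.11 to 8.11, erythroid markers (3 of 5) to 53.4 to 633 and lymphocyte markers (2 of 4) to 0 to 3.54.

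Ces1c was the most abundant member. Its mean over the 17 shared fractions was 175 TPM in gradient 1 and 298 TPM in gradient 2 (237 ± 86.9, SD, n = 2). It was the only member whose gradients did not overlap with those of the next in order, Ces3a (72.01 ± 32.2 TPM). Ces1f (66.3 ± 16.0), Ces1d (62.7 ± 33.6), Ces1b (59.0 ± 5.96) and Ces2a (45.9 ± 39.4) followed, and each overlapped with its neighbor. Ces1e (37.3 ± 11.0), Ces3b (32.9 ± 20.1), Ces1g (22.0 ± 9.92) and Ces2e (12.5 ± 3.53) were the lowest, again without separation between neighbors. No test was made of this order.

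Along gradient 1 every member was highest in fractions 4 to 6 and lower toward the dense side, as the plot of TPM by fraction shows. Ces1c went from 432, 474, 346 and 295 TPM in fractions 4 to 7 to 151, 103, 87.8 and 78.5 TPM in fractions 10 to 13, and stayed at 83.2, 76.1, 66.0 and 81.1 TPM in fractions 16 to 19. In gradient 2 the light side was alike, with 454, 521, 381 and 341 TPM in fractions 4 to 7 and 302, 236, 189 and 182 TPM in fractions 10 to 13. The dense side of gradient 2 was not as low, with 217, 249, 255 and 299 TPM in fractions 16 to 19 and 445 TPM in fraction 24. In both gradients each value of Ces1c in fractions 4 to 7 exceeded each value in fractions 10 to 13 and in fractions 16 to 19, while fraction 24 of gradient 2 exceeded fractions 6 and 7.

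**Figure D1:**
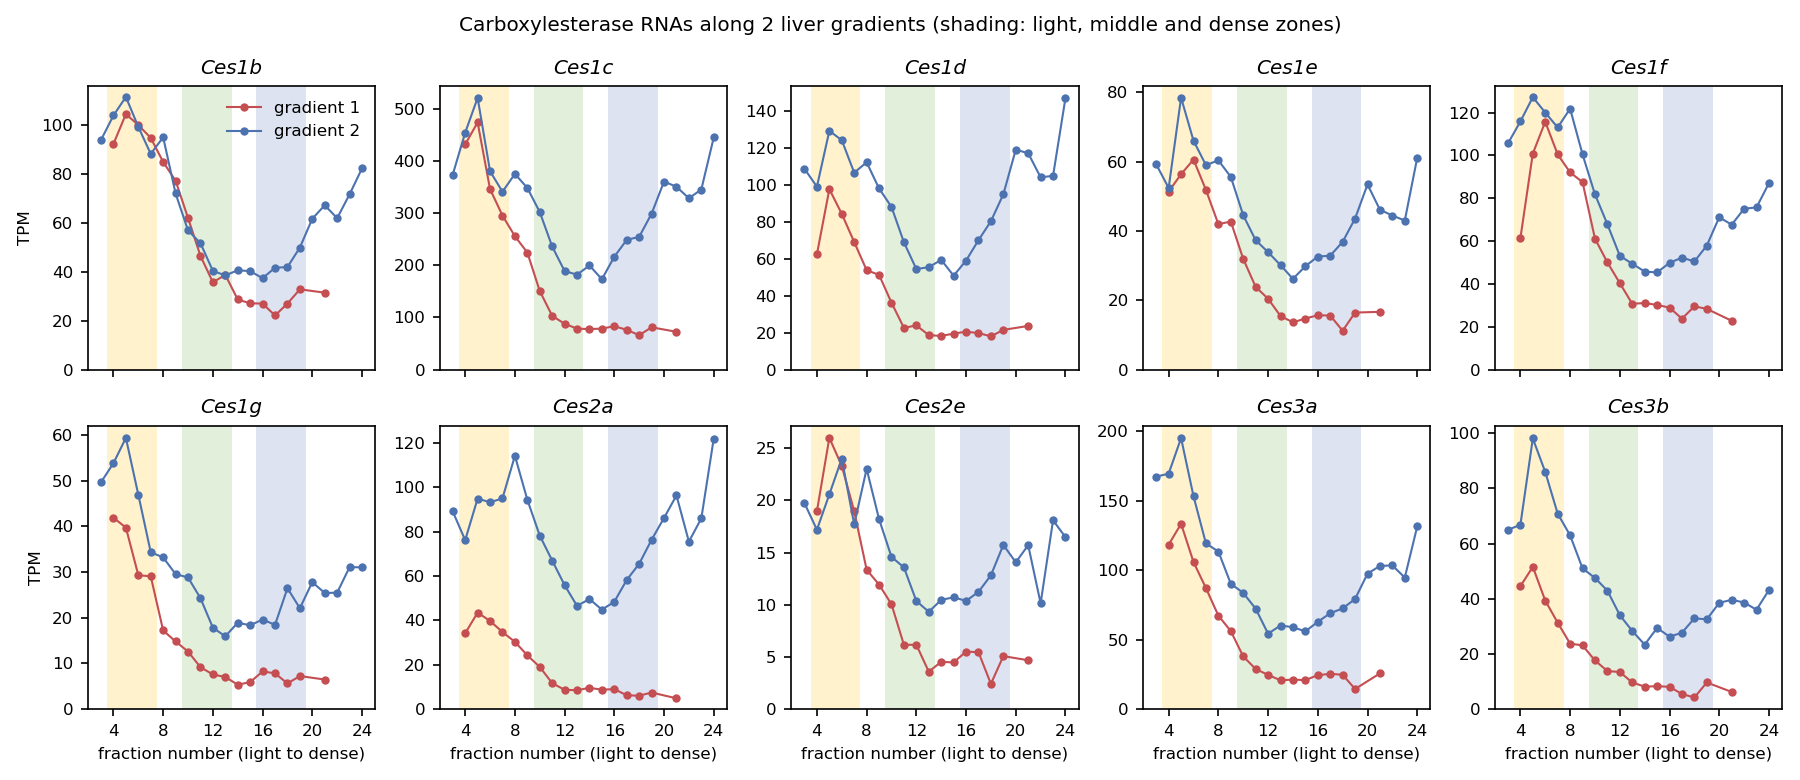
TPM of each of the 10 members (y axis, linear and starting at 0, with its own scale per gene) against fraction number (x axis, light to dense) in gradient 1 (red, 17 libraries) and gradient 2 (blue, 22 libraries), 1 point per library, with the light, middle and dense zones shaded. Each member is high on the light side in both gradients, and in gradient 2 each is higher again past a low between fractions 12 and 16.

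The other members were also high on the light side. The highest value lay in fraction 5 for 7 members in gradient 1, with Ces1g highest in fraction 4 (41.9 TPM) and Ces1e and Ces1f in fraction 6 (60.6 and 116 TPM). In gradient 2 it lay in fraction 5 for 7 members and in fraction 6 for Ces2e (24.0 TPM). Ces1d and Ces2a were highest in fraction 24 of gradient 2, at 147 and 122 TPM. On the light side of gradient 2 Ces1d was highest in fraction 5 (129.5 TPM) and Ces2a in fraction 8 (114 TPM). From lowest to highest fraction the members spanned 4.73-fold (Ces1b) to 12.3-fold (Ces3b) in gradient 1 and 2.57-fold (Ces2e) to 4.20-fold (Ces3b) in gradient 2. Summed over the 10 members, TPM went from 1128 in fraction 5 to 195 in fraction 18 of gradient 1, and in gradient 2 from 1436 in fraction 5 to 499 in fraction 15 and 1167 in fraction 24.

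The gradients were compared member by member over the 17 shared fractions as a description, since neighboring fractions of a gradient are not independent. Pearson's R ran from 0.677 (Ces2a) to 0.956 (Ces3a) with a median of 0.914, beside a median of 0.904 over the 11371 genes that averaged 1 TPM or more in each gradient. Over fractions 4 to 15 alone, R ran from 0.831 (Ces2a) to 0.991 (Ces3a).

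To ask whether the decline exceeded the difference between mice, fractions were grouped into a light zone (4 to 7), a middle zone (10 to 13) and a dense zone (16 to 19). Changes are differences of the zone means of log2(TPM + 1), and they understate changes of low genes. They were tested with limma over 11754 genes with 2 gradients per zone. The main fit did not pair the zones of a gradient, so its error included the difference in level between the gradients. All 10 members were lower in the middle than in the light zone in both gradients, by a change of -0.99 (Ces1f) to -1.59 (Ces3a), with a median of -1.19 where all genes tested had 0.046. The size differed by gradient, from -1.04 (Ces1f) to -1.97 (Ces3a) in gradient 1 alone (median -1.63) and from -0.55 (Ces2a) to -1.22 (Ces3a) in gradient 2 alone (median -0.92). The gap was widest for Ces2a (-1.65 and -0.55), Ces1c (-1.89 and -0.91) and Ces2e (-1.66 and -0.70) and narrowest for Ces1b (-1.11 and -1.10). Only Ces1b passed the test (change -1.11, SE 0.24, limma adjusted p = 0.0126), so 1 of 10 members was called lower, where 24.1% of all genes were. An unadjusted p under 0.05 was found for 4.

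The zones of a gradient come from 1 homogenate, and with the gradient as a block 9 of 10 members were called lower in the middle zone, where 35% of all genes were. The exception was Ces2a (change -1.10, limma adjusted p = 0.0536 with the block and 0.468 without). Ces2a was the member with the widest gap between gradients, at 34.2, 43.5, 39.7 and 34.7 TPM in the light fractions of gradient 1 and 76.2, 94.9, 93.3 and 95.0 TPM in those of gradient 2. Its middle fractions held 19.0, 11.7, 8.68 and 8.53 TPM in gradient 1 and 78.2, 67.0, 55.9 and 46.5 TPM in gradient 2, where 1 middle fraction exceeded 1 light fraction. Ces1b was the steadiest member, with light fractions of 92.1, 104, 99.8 and 94.6 TPM in gradient 1 and 104, 111, 99.1 and 88.1 TPM in gradient 2, and its middle fractions lay below all of these in both.

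Between the dense and the light zone all 10 members were again lower in both gradients, with changes of -1.25 (Ces1d) to -1.93 (Ces3b) and a median of -1.47, where the median over all genes was -0.43. The changes were -1.71 (Ces1f) to -2.48 (Ces3b) in gradient 1 alone (median -2.09) and -0.54 (Ces2a) to -1.39 (Ces3b) in gradient 2 alone (median -0.95), while the median over all genes was -0.40 in each. Ces2a (-2.26 and -0.54), Ces1c (-2.30 and -0.72), Ces2e (-2.06 and -0.63) and Ces1d (-1.90 and -0.60) had the widest gaps. Ces1b (change -1.52, SE 0.24, limma adjusted p = 0.00276), Ces1f (-1.44, SE 0.35, adjusted p = 0.0143) and Ces1e (-1.32, SE 0.45, adjusted p = 0.0449) passed the test. That is 3 of 10 members called lower, where 39.6% of all genes were, and 6 had an unadjusted p under 0.05. With the block 10 of 10 were called lower, where 50% of all genes were, at limma adjusted p-values of 0.000643 (Ces1f) to 0.0221 (Ces2a). With quantile normalization 3 members were called lower as well, where 3503 of 11754 genes were. Ces1e was lost (change -1.16, limma adjusted p = 0.0915) and Ces1c gained (-1.83, adjusted p = 0.0446).

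Most markers of Kupffer, endothelial and stellate cells were lower on the dense side as well. From the light to the dense zone 4 of 6 Kupffer cell markers fell (median change -1.44), where 39.6% of all genes fell and 22.3% rose. So did 4 of 5 endothelial (-1.20), 4 of 5 stellate (-1.47) and 2 of 3 erythroid markers (-1.45), and 0 of these rose. Of 7 hepatocyte markers 2 fell and 2 rose (median -0.35), and 0 of 2 cholangiocyte markers passed the test. With the block 50% of all genes fell and 30.5% rose. Then 4 Kupffer, 5 endothelial, 4 stellate, 2 erythroid and 3 hepatocyte markers fell. Alas2 (erythroid, change 0.76, limma adjusted p = 0.00562), Krt19 (cholangiocyte, 0.56, adjusted p = 0.0491) and 2 hepatocyte markers rose. The summed Kupffer markers went from 86.9 and 85.3 TPM in the light zone of gradients 1 and 2 to 37.4 and 42.3 TPM in the dense zone, and the summed stellate markers from 42.9 and 56.6 to 11.9 and 18.7 TPM. All zones of a gradient come from 1 homogenate, and whether these markers bear on the members' decline was not tested.

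The light fractions of the members also stood apart from the rest within a gradient. In gradient 1 all 4 light fractions exceeded all 4 middle and all 4 dense fractions in 10 of 10 members, where 25.1% and 39.4% of all genes tested did so. In gradient 2 this held for 9 of 10 members in each comparison, against 24.2% and 40.4% of all genes, and the exception was Ces2a.

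Between the dense and the middle zone 0 of 10 members were called, where limma called 27.3% of all genes in either direction, and none had an unadjusted p under 0.05. With the block 0 were called as well, where 53.4% of all genes were, with 1 at an unadjusted p under 0.05 (Ces1f, change -0.45, limma adjusted p = 0.0622). In gradient 1 all 10 changes were below 0, from -0.93 (Ces3b) to -0.27 (Ces1g). In gradient 2 only 3 were (Ces1b -0.12, Ces1f -0.23 and Ces3b -0.33), and the other 7 lay between 0.0047 (Ces1e) and 0.19 (Ces1d). The median change over the members was -0.22, beside -0.28 over all genes. Quantile normalization moved the median of all genes from -0.28 to 0.053 and turned the sign of 7 members.

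**Figure D2:**
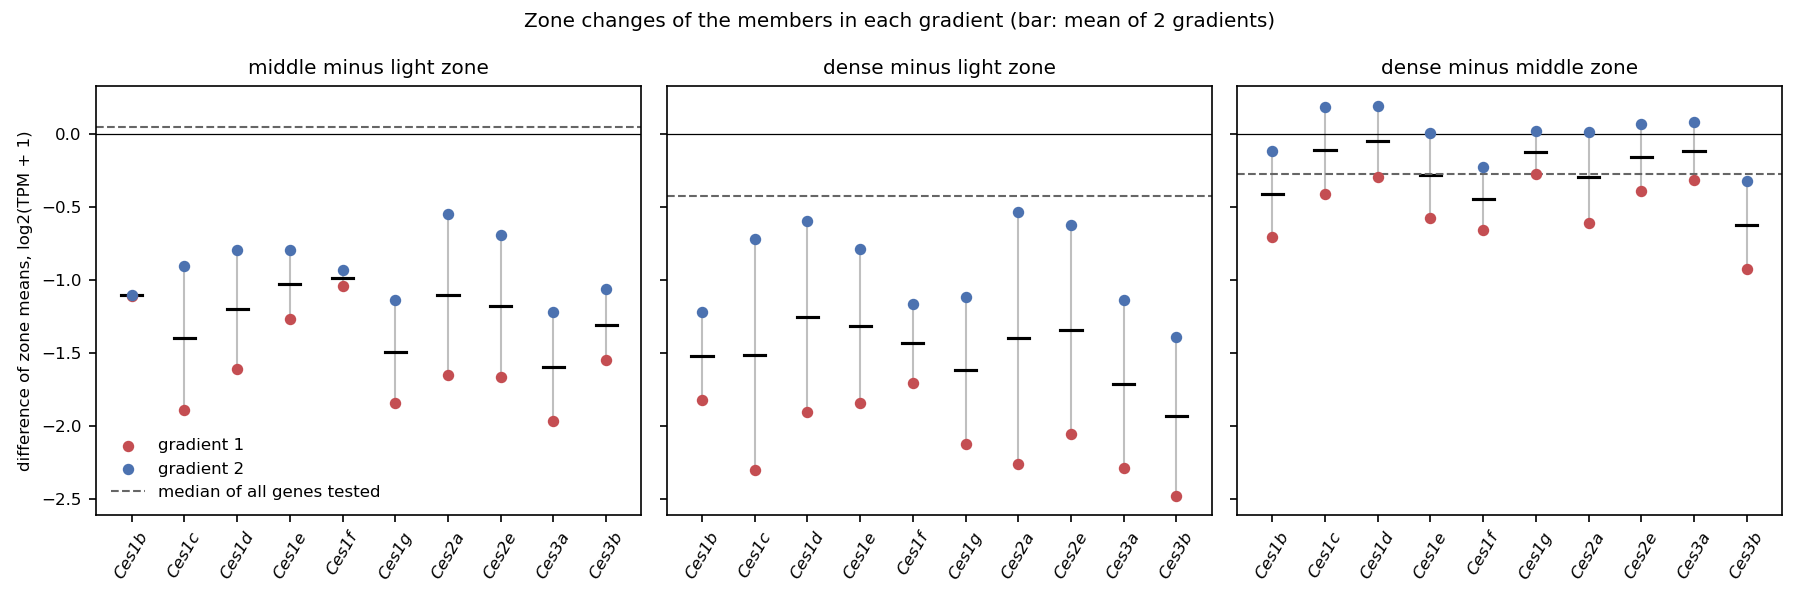
Change of each member between zones, as the difference of zone means of log2(TPM + 1) (y axis), in gradient 1 (red) and gradient 2 (blue), with black bars for the mean of both and a dashed line for the median of 11754 genes. Middle minus light and dense minus light are below 0 for each member in each gradient, and dense minus middle lies on both sides of 0 in gradient 2.

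Most carboxylesterases had higher TPM in gradient 2 than in gradient 1, and their median ratio was larger toward the dense side. Over the 17 shared fractions the ratio of gradient 2 to gradient 1 was 1.15 for Ces1b and 4.09 for Ces2a at the ends, with a median of 1.81 over the members and 0.896 over all genes tested. By zone, the members' median ratio was 1.32 in the light, 2.28 in the middle and 3.09 in the dense zone, where that of all genes was 0.909, 0.921 and 0.881. Exceptions were Ces2e in the light zone, which was lower in gradient 2 (ratio 0.911), and Ces1b, which was alike in the light and the middle zone (1.03 and 1.02). In the dense zone Ces2a reached a ratio of 8.65 (7.18 against 62.1 TPM) and Ces1b the lowest, 1.57 (27.2 against 42.6 TPM). Lists of secreted and ER proteins had this larger difference as well. The dense minus light difference of log2(TPM + 1) was higher in gradient 2 by a median of 1.12 over the members, 1.30 over plasma proteins, 1.02 over ER-lumen folding proteins and 1.00 over the P450 system, with -0.075 over all genes and -0.19 over cytosolic enzymes. With 1 gradient per mouse this difference has no replicate and was not tested, and mouse and gradient cannot be told apart. The summed hepatocyte markers were also higher in gradient 2 in the middle zone (11672 and 18200 TPM in gradients 1 and 2) and the dense zone (17453 and 31260 TPM), but lower in the light zone (43123 and 32020 TPM), and their part in the result was not tested.

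**Figure D3:**
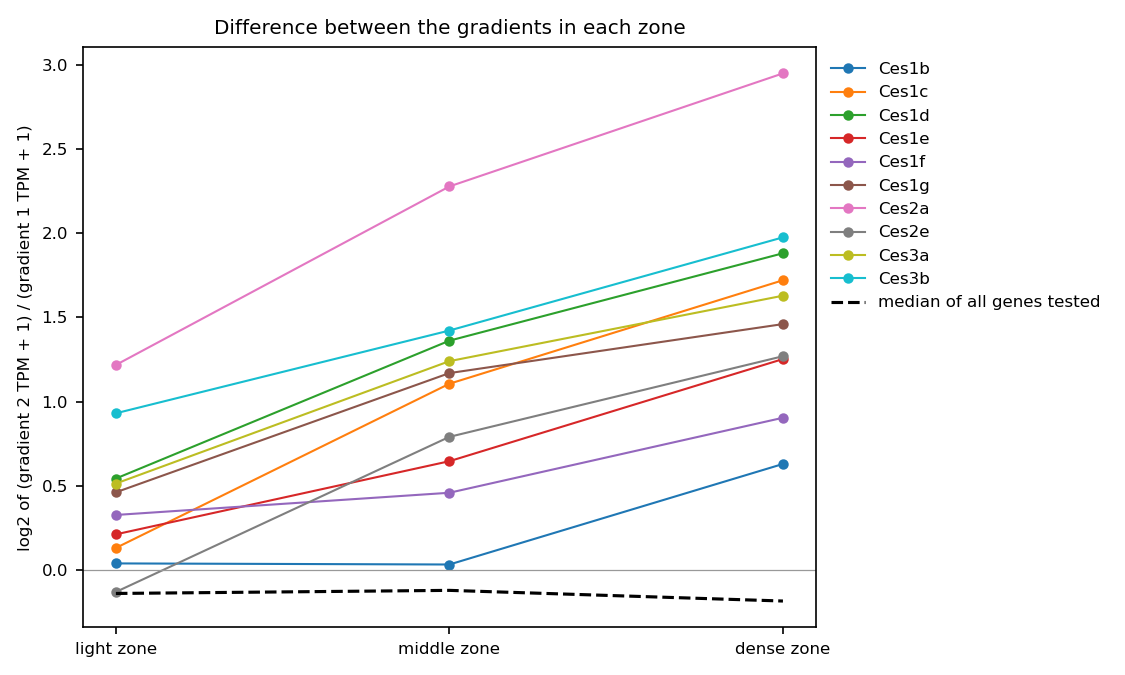
Log2 ratio of gradient 2 to gradient 1, from zone means of TPM with 1 added (y axis), in the light, middle and dense zones for each of the 10 members, with a dashed line for the median of all genes tested. In the dense zone each member lies above 0, from 0.63 (Ces1b) to 2.95 (Ces2a), while the median of all genes stays at -0.18 there.

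Fraction 21, the last of gradient 1, was set against the mean of fractions 12 to 15 as a difference of log2(TPM + 1), a window chosen after seeing the data. In gradient 1 the difference was -0.76 (Ces2a) to 0.23 (Ces1d) with a median of -0.011, and the median over all genes tested was -0.23. In gradient 2 it was 0.46 (Ces3b) to 1.08 (Ces1d) with a median of 0.67, and that of all genes was -0.34. Each of the 10 members had the higher value in gradient 2, which was not tested. Fractions 22 to 24 were sequenced in gradient 2 only, so this end of the profile has no replicate.

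The composition of the summed carboxylesterase RNA was led by Ces1c in every library. It made up 37.5% ± 3.91 of it in the light zone, 34.4% ± 1.38 in the middle and 37.2% ± 2.02 in the dense zone (SD, n = 2). Ces2a differed by gradient in each zone, at 3.96% against 7.36% in the light and 3.35% against 9.42% in the dense zone of gradients 1 and 2. Ces1b went the other way, at 12.7% against 6.46% in the dense zone. Because shares sum to 100%, a larger share of 1 member lowers the rest.

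**Figure D4:**
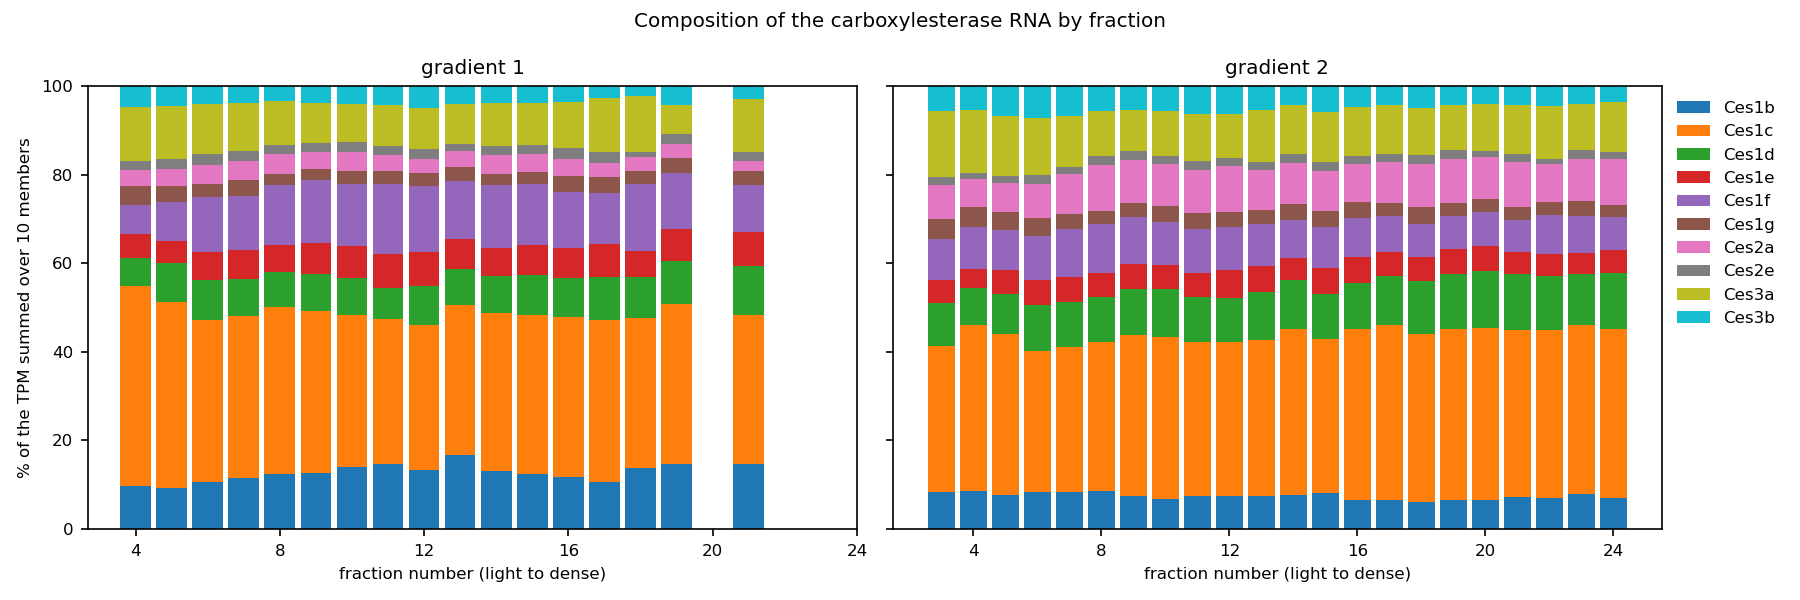
Share of each member in the TPM summed over the 10 members (y axis, %, stacked to 100) against fraction number (x axis, light to dense), 1 bar per library of gradient 1 (left, no library of fraction 20) and gradient 2 (right). Ces1c is the largest part in each bar, and Ces2a takes a larger part in gradient 2 than in gradient 1.

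Profiles of the members resembled each other within a gradient, and pairs of other genes were not set beside them. Over 45 pairs the median Pearson's R was 0.958 (0.762 to 0.993) in gradient 1 and 0.860 (0.566 to 0.966) in gradient 2, with all pairs sharing the same libraries. The 17 pairs within a subfamily had medians of 0.948 and 0.880, and the 28 pairs between subfamilies 0.963 and 0.841. The lowest pair in gradient 2 was Ces1g and Ces2a (R = 0.566, with 0.928 in gradient 1), and the highest was Ces1b and Ces1f (0.966, with 0.949). Ces3a and Ces3b, which share the most sequence, had 0.982 and 0.884. Ces1b and Ces1c, without the ending of the other 8, had 0.944 and 0.912.

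Of 6589 genes averaging 10 TPM or more per gradient, those with profiles most like the members' sum, by the lower of the R in gradient 1 and in gradient 2, were Cyp2d22 (0.979), a P450 monooxygenase of the ER membrane, Fga (0.977), the fibrinogen alpha chain, Serping1 (0.972), the plasma C1 inhibitor, Pdia4 (0.970), a disulfide isomerase of the ER lumen, and Cyp2b13 (0.964), another P450. The nearest gene to Ces1b was Pdia4 (0.981), to Ces1c the plasma serpin Serpina3k (0.970), to Ces1d the sulfhydryl oxidase Qsox1 (0.957), to Ces1e the complement factor Cfb (0.961) and to Ces1f the cathepsin Ctsh (0.943). The nearest to Ces1g was the ER chaperone Hsp90b1 (0.977), to Ces3a the plasmin inhibitor Serpinf2 (0.971) and to Ces3b the plasma protein Itih1 (0.969). Ces2a (antithrombin, Serpinc1, 0.928) and Ces2e (the transporter Abcc3, 0.907) had the least close neighbors. By the same measure, 61 of the 6589 genes reached 0.9 or more for the members' sum. For single members the number ran from 2 (Ces2e) to 343 (Ces3b).

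Of the other carboxylesterase genes, Ces2g and Ces2c were tested. Ces2g was highest in fraction 5 of gradient 1 (15.2 TPM) and fraction 4 of gradient 2 (20.0 TPM), and it fell from the light to the middle zone (change -2.07, limma adjusted p = 0.0136) and to the dense zone (-2.14, adjusted p = 0.00862). Ces2c was low, with medians of 0.831 and 3.65 TPM, and did not pass (-0.38, limma adjusted p = 0.714, and -0.88, adjusted p = 0.361), but with the block it was called lower in the dense than in the light zone (adjusted p = 0.00575). Ces4a stayed between 0 and 1.63 TPM and was not tested, and Ces2d-ps was listed in gradient 1 alone with a highest value of 1.34 TPM. Ces1a, Ces1h, Ces2b, Ces2f, Ces2h and Ces5a were looked up and were listed under these names in neither gradient.

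Genes of the same route and of other compartments were set beside the members by counts. Their lists were drawn up with earlier results of these data known. Of all genes, 39.6% were lower and 22.3% higher in the dense than in the light zone (50% and 30.5% with the block). Of 21 folding proteins of the ER lumen, 16 fell from the light to the dense zone and 0 rose (18 and 0 with the block), with a median change of -1.95 (members -1.47). The protein disulfide isomerase P4hb (-2.73, limma adjusted p = 0.00324) and calreticulin, Calr (-2.16, adjusted p = 0.0111), were among those that fell, and the cyclophilin Ppib was at -0.82 (adjusted p = 0.187). The direction was not shared by all, since 19 of 21 changes were below 0 and Fkbp2, another prolyl isomerase, was at 0.57 (adjusted p = 0.189). Of 12 genes listed as other ER hydrolases and enzymes, whose location was not checked here, 8 fell (8 with the block, median -1.69). Among those that fell were the hepatic lipase Lipc (-2.75, adjusted p = 0.000378), the paraoxonase Pon1 (-1.67, adjusted p = 0.0252) and H6pd (-1.70, adjusted p = 0.0019). Afmid, also in this list, was at -0.14 (adjusted p = 0.716).

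Of 36 genes of the P450 system 13 fell and 2 rose (median -1.23), and with the block 31 fell and 2 rose, so that the share that fell was below that of all genes without the block and above it with the block. Cyp2e1, which oxidizes ethanol, was among those that fell (-2.45, limma adjusted p = 0.0159), and cytochrome b5, Cyb5a (1.07, adjusted p = 0.011), and its reductase Cyb5r3 (1.84, adjusted p = 0.00122) rose. Of 30 plasma proteins 21 fell and 1 rose (22 and 1 with the block, median -1.72), with albumin, Alb, at -2.59 (adjusted p = 0.00267) and Apoa2 at 1.25 (adjusted p = 0.0378). Of 23 genes of triglyceride handling, the pathway in which Ces1d acts, 9 fell and 4 rose (11 and 6 with the block, median -0.50), with Apob at -3.72 (adjusted p = 0.000384), Scd1 at -2.32 (adjusted p = 0.000964) and the lipid droplet coat protein Plin2 at 2.43 (adjusted p = 0.0289). Of 30 cytosolic enzymes 29 rose and 1 fell with and without the block (median 2.42), among them Hpd (3.08, adjusted p = 0.000301) and Gnmt (2.95, adjusted p = 0.000578). No test compared the members with these lists.

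**Figure D5:**
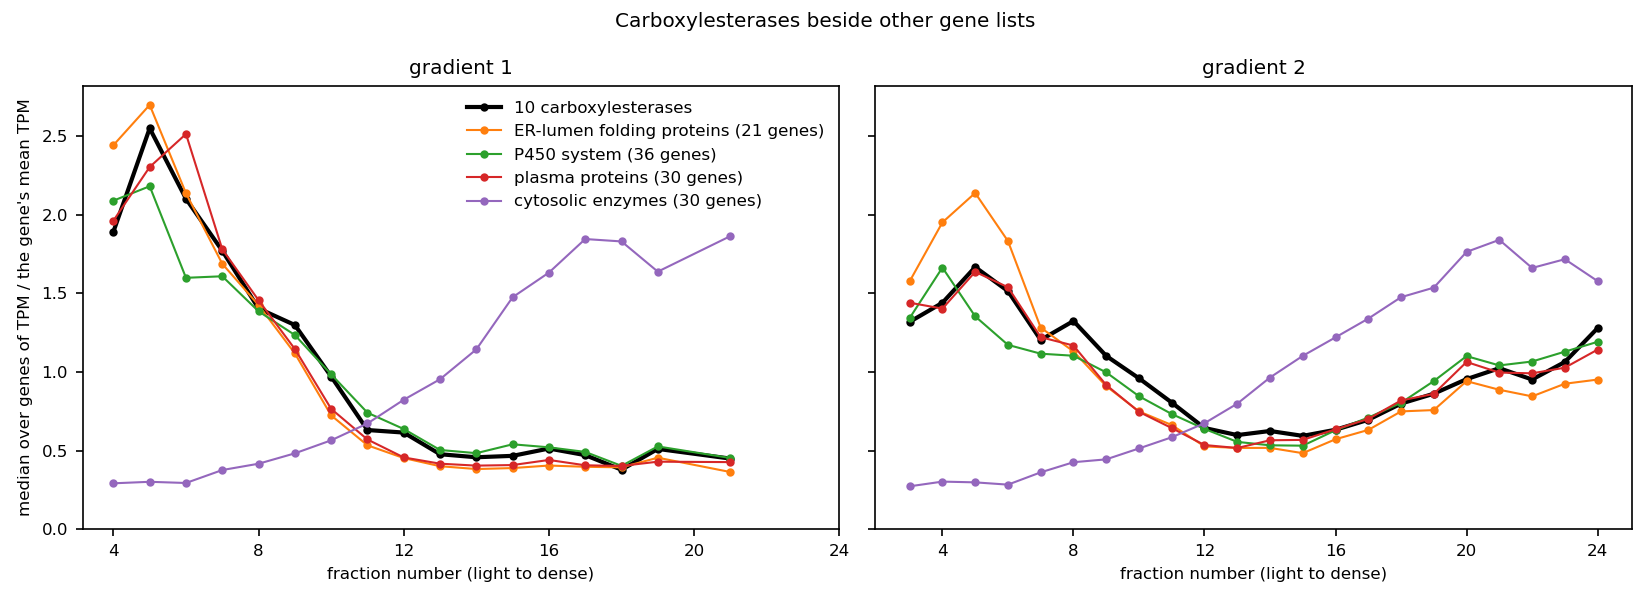
Median over the genes of a list of TPM divided by the gene's mean TPM (y axis, starting at 0) against fraction number (x axis, light to dense) in gradient 1 (left) and gradient 2 (right), for the 10 carboxylesterases (black), 21 ER-lumen folding proteins, 36 genes of the P450 system, 30 plasma proteins and 30 cytosolic enzymes. The carboxylesterases are highest in fraction 5 of both gradients (2.55 and 1.67), and the cytosolic enzymes are highest in fraction 21 (1.87 and 1.84).

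The difference between fraction 21 and the mean of fractions 12 to 15, on the log2(TPM + 1) scale, was also higher in gradient 2 in these lists. Beside medians of -0.011 in gradient 1 and 0.67 in gradient 2 for the carboxylesterases, it was -0.0067 and 0.80 for the folding proteins, -0.25 and 0.80 for the P450 system and 0.063 and 0.76 for the plasma proteins. For the cytosolic enzymes, which are high on the dense side, it was 0.81 and 1.04. The lists were not tested against each other.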

How the data were processed

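Libraries were stranded, depleted of ribosomal RNA and sequenced in 75-bp read pairs from equal masses of RNA. The submitters' notes name bcl2fastq 2.16.0.10, kallisto and mm10. The authors deposited TPM per gene and gradient, estimated with kallisto on RefSeq transcripts, with genes kept above 1 TPM in at least 1 fraction. No counts were used, so depth is unknown and precision comes only from the 2 gradients. Columns without a sample numbered 0.

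The members and gene lists were chosen with earlier results of these data known. Named were the 10 members, other Ces genes, up to 5 of the most abundant genes of each list and the genes nearest in profile. Zone means of log2(TPM + 1) over 24 libraries were tested with limma 3.58.1 (R 4.3.3) with Benjamini-Hochberg adjustment over 11754 genes averaging 1 TPM or more. The code was tested on simulated data. Zones of a gradient share a homogenate, and the gradients' deviations correlated between zones (r = 0.665 middle and light, 0.540 dense and light, 0.798 dense and middle), so a fit with the gradient as a block was added. Alternatives were the pseudocount, TPM filters, rescaling without the 50 highest genes, quantile normalization, other zones, the block and leaving out a gradient. Sequences were read with Python 3.11.15 from GENCODE M21.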

Additional observations from a re-analysis of the deposited data

Results flagged for a closer look

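For 7 members the dense minus middle change was below 0 in gradient 1 and above 0 in gradient 2, and the difference between the gradients was not tested. Gradient 2 exceeded gradient 1 in this change by 0.60 for Ces1c, 0.49 for Ces1d, 0.58 for Ces1e, 0.30 for Ces1g, 0.62 for Ces2a, 0.46 for Ces2e and 0.40 for Ces3a on the log2 scale. The median of this difference over the 10 members was 0.53, beside -0.054 over the 11754 genes tested, 0.48 over the 21 folding proteins of the ER lumen and -0.013 over the 30 cytosolic enzymes.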

How the results depend on the processing

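All 240 values of the changes against the light zone, over members and alternatives, were below 0. The block and the TPM filters leave each change as in the main fit, so those values could not turn sign. Those from leaving out a gradient are the changes of each gradient alone, given above. In the middle against the light zone 1 member was called lower, where 2827 of 11754 genes were. These numbers were 2 and 3334 without the 50 highest genes, 3 and 2878 with quantile normalization, and 9 and 4109 with the replicate block. In the dense against the light zone 3 members and 4658 genes were called lower, and 10 and 5879 with the replicate block. Zones of gradient 2 moved by 1 fraction were chosen after seeing the data. Moved to the dense side, 2 members and 2894 genes were called lower in the middle against the light zone. In the dense against the light zone 5 members and 4618 genes then were. Moved to the light side, 7 members and 4206 genes were called lower in the dense against the light zone. With the block 8478, 9468 and 6275 of all genes were called in either direction, in place of 5589, 7274 and 3208. Leaving out a gradient leaves no residual degrees of freedom, so it gives values and no counts.

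The dense minus middle change turned above 0 with quantile normalization for Ces1c (0.020), Ces1d (0.24), Ces1e (0.051), Ces1g (0.23), Ces2a (0.032), Ces2e (0.20) and Ces3a (0.18), and for Ces1d without the 50 highest genes (0.054). With the zones of gradient 2 moved to the dense side it did so for Ces1c (0.053), Ces1d (0.14), Ces1g (0.0059) and Ces3a (0.022). Leaving out 1 gradient gave -0.41 to 0.18 for Ces1c, -0.29 to 0.19 for Ces1d, -0.57 to 0.0047 for Ces1e, -0.27 to 0.020 for Ces1g, -0.61 to 0.012 for Ces2a, -0.39 to 0.068 for Ces2e and -0.32 to 0.082 for Ces3a. Quantile normalization moved the median change of all genes in the dense against the light zone from -0.43 to -0.054, and the share of higher calls from 36.0% to 50.6% (17.5% to 43.2% in the dense against the middle zone). The causes were not tested.

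The median R between the gradients, 0.914, was 0.893 on the log2 scale, 0.833 and 0.857 with gradient 2 shifted by 1 fraction to the dense and to the light side, 0.898 without the 50 highest genes and 0.950 over fractions 4 to 15, a range chosen after seeing the data. The median R over pairs in gradient 2, 0.860, was 0.880 on the log2 scale and 0.958 in gradient 1.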
